A study of Mus musculus with 4 samples.

Results

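The cells described here are those that the study named Macrophage among immune cells sorted for group 2 innate lymphoid cells (ILC2s, innate lymphocytes that lack antigen receptors and secrete IL-5 and IL-13) from mouse liver and lung. Their members are the genes that the deposited cell type marker table lists for that name, 291 of the 1679 genes in the table, which is 17.3% of them. The table holds 4422 listings, a listing being 1 gene in 1 of 21 named cell types. A gene has a row for a type because the authors found it as a marker of that cluster. Differences between a type and the other cells therefore partly restate how the genes came to be listed. The paper does not state whether only genes with higher expression in a type were kept. Some listings had a lower share inside their type than outside it. The median difference, inside minus outside, was -8.60 percentage points for CD4, but only 1 of the 291 Macrophage genes was lower inside.

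All libraries came from 8-week-old wild-type BALB/c mice. PBS liver and PBS lung were from mice given PBS intraperitoneally on each of 5 days, and rIL-33 liver and rIL-33 lung were from mice given 0.5 µg of recombinant IL-33 on each of 5 days. Each of the 4 groups was 1 library, made from cells pooled from 2 to 6 mice per group. Cells were sorted as negative for CD3e, Ly6G, Ly6C, CD11b, CD45R, TER119 and TCRβ and positive for CD127, Thy1 and ST2. Any macrophage or dendritic cell in the data had therefore passed a gate drawn to keep ILC2s and to remove myeloid and other lineages.

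The table pools the 4 libraries and gives no value per library. Neither PBS and rIL-33 nor liver and lung could therefore be compared for these cells, no value has a replicate, and the table states neither the depth nor the number of cells. The cells had been grouped by the same expression values, so each difference from the other cells below is a description and carries no test. The values used are the share of cells of a type with a value above 0 for a gene, called the share inside, and the same share in all other sorted cells, called the share outside. A gene that is not listed for a type may be lower there, similar, too rare or not tested, and its absence does not separate these cases.

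Macrophages are tissue phagocytes that engulf dying cells, microbes and lipoproteins, digest them in lysosomes with cathepsins, and present the resulting peptides on MHC class II molecules. Liver and lung each hold a resident form, the Kupffer cell and the alveolar macrophage, both of which depend on the CSF1 or GM-CSF receptor and on the transcription factor PU.1 (*Spi1*). Plasmacytoid dendritic cells are a separate lineage, set by the E protein TCF4 and known for sensing nucleic acids in endosomes and releasing type I interferon. *Bst2*, which tethers budding virions to the cell surface, is induced by interferon in many cells and is also the antigen by which mouse plasmacytoid dendritic cells are recognised.

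Sequences around a transcript start are given for 4 listed genes that the results turn on: *Mrc1*, which leads the macrophage markers, *Rnase6*, which leads the plasmacytoid dendritic cell markers, *Bst2*, which belongs to both lists, and *Lyz2*, a marker listed for no other type. Each run is the window from 250 bases before to 50 bases after a RefSeq transcript start on GRCm38.p6, read 5′ to 3′ on the gene's strand. The windows are chr2:14229164-14229463 (plus strand), chr14:51128814-51129113 (plus strand), chr8:71537423-71537722 (minus strand) and chr10:117282223-117282522 (minus strand). The window of *Rnase6* lies inside the annotated gene (chr14:51123908-51132187), at one of its inner transcript starts. Capitals mark the letters of 3 short motifs on either strand: GAGGAAG, letters often bound by PU.1, GAAANNGAA, letters of interferon regulatory factor (IRF) elements, and CAGGTG, an E box bound by TCF4.
Mrc1: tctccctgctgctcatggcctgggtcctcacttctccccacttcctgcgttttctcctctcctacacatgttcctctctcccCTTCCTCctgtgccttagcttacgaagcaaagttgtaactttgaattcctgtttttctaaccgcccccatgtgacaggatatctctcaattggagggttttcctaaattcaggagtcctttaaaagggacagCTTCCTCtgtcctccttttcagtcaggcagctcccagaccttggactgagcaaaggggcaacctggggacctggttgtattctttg
Rnase6: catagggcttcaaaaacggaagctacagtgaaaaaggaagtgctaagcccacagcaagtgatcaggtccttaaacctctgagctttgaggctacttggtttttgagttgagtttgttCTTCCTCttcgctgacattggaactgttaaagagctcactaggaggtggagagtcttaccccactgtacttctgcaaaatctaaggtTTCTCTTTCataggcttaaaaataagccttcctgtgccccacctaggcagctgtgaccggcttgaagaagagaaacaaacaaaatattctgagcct
Bst2: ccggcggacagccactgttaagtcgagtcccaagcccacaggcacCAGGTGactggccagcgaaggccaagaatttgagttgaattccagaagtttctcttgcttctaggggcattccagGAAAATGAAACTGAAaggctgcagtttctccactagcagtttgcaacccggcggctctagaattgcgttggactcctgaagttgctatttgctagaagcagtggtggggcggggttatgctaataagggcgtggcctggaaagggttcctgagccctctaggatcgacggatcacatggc
Lyz2: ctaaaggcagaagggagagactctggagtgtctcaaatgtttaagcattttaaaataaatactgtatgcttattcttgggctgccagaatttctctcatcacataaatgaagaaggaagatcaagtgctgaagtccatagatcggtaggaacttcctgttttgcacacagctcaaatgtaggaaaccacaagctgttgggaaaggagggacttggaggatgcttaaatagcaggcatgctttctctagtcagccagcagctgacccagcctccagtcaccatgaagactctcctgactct

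The *Mrc1* window holds the PU.1 letters at 2 places, beginning 168 and 36 bases before the start. The *Rnase6* window holds the PU.1 letters 133 bases and the IRF letters 46 bases before the start. In the *Bst2* window a pair of overlapping IRF matches begins 130 and 124 bases before the start, with an E box 205 bases before it. The *Lyz2* window holds none of the 3 motifs, which says only that these letters are not in these 300 bases.

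Of the 291 listed genes, 205 had a window in the RefSeq table. The PU.1 letters were in 48 of the 205 windows (23.4%), against 16.1% of the 1112 windows of the other genes in the cell type table and 13.5% of 27025 windows of all genes. The IRF letters were in 10.2% of the listed genes' windows, 9.17% of those of the other genes in the cell type table and 8.57% of all windows, and in 4 of the 5 windows found for listed interferon response genes (*Bst2*, *Ifitm2*, *Ifitm3* and *Trim30a*). The E box was in 17.1% of the listed genes' windows, 15.8% of those of the other genes in the cell type table and 20.0% of all windows, and in 2 of 15 windows of listed plasmacytoid dendritic cell genes. These shares are descriptions, and a match is not evidence that a factor binds there.

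The table gives no number of cells, but the size of the type as a share of all cells can be solved from it. For each gene, the share outside plus the size of a type times the difference between both shares gives the share in all cells, whichever type lists the gene. Fitted over 1045 genes, the type held 4.59% ± 0.00565 of the sorted cells (SE of the fit in percentage points), and the root mean square residual of the fit was 0.0233 percentage points, under the 0.0289 that rounding of the shares gives. The type was the sixth largest of the 21 types, after types that included ILC2 at 43.2%, and far above Endothelium cell at 0.805% and MMP_LMPP at 0.387%. The error covers the fit to rounded shares only, not sampling of cells or mice.

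Nearly all listed genes were above 0 in more of the cells named Macrophage than of the other cells. The share inside was higher for 290 genes and lower for 1. The median share inside was 88.1% (24.3% to 99.9%), and the median share outside was 39.8% (6.30% to 98.0%). The difference of both shares had a median of 41.7 percentage points, against 16.4 for the listings of the other types, and only Endothelium cell had a higher median, at 45.2. The share inside exceeded the share outside by at least 10 percentage points for 287 of the 291 genes, where 65.5% of all listings in the table did so. It was at least 2 times the share outside for 150 genes (51.5%), where 19.3% of all listings reached that ratio, and 54.7% of those of Endothelium cell did. The share inside was at least 90% for 130 genes and under 50% for 5.

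**Figure D1:**
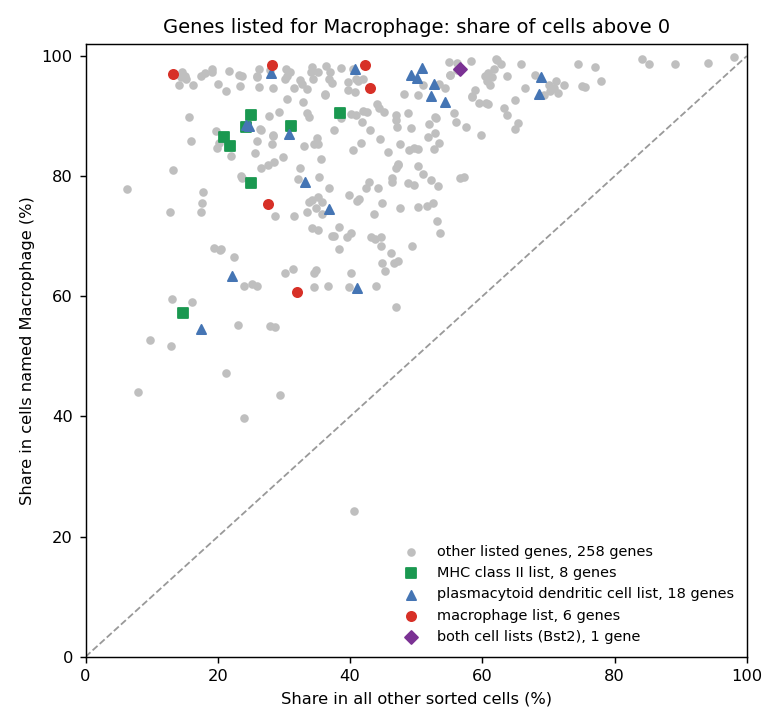
Share of cells with a value above 0 among cells named Macrophage (vertical axis, %) against the share in all other sorted cells (horizontal axis, %), 1 point for each of the 291 listed genes, coloured by marker list; the dashed line marks equal shares. All but 1 gene lie above the line, the MHC class II genes lie between 14.7% and 38.5% on the horizontal axis, and *Bst2* alone belongs to both the macrophage and the plasmacytoid dendritic cell lists.

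The shares of the cell type table were checked against the separate ILC2 subcluster table. Cells named ILC2 and ILC2_2, together 45% of all cells, were 47.2% of the cells outside the type. *Tyrobp*, the adaptor of activating myeloid and NK cell receptors, was above 0 in 3.53% of the cells of the subcluster table, which would allow a share outside of at most 54.5% if those are the cells of these names, and the share outside was 62.0%. *Fcer1g*, the common γ chain of Fc receptors, had 5.58% of ILC2s, at most 55.5% allowed and 62.2% found. Both tables held 99 of the listed genes, of which 6 were above this limit, among them *Ftl1* at 98.0% against 97.9%, and 93 were within it. Both genes were also above 0 in most NK cells (99.7% and 99.5%) and ILC1s (92.7% and 97.0%). For genes above the limit the tables do not hold the same quantity under that assumption, and the study, which removed cells with markers of other lineages before it divided the ILC2s, describes clustering on 1 merged matrix of scaled, log-transformed counts and names no further step that joins the libraries. What set these genes above the limit was not tested. A share is therefore read here mainly against the other shares of the same table.

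The study's label was checked against its markers. *Lyz2* (chr10:117277541-117282272), which encodes the lysozyme of phagocytes, was above 0 in 98.5% of the cells named Macrophage and in 42.3% of the others, and no other type listed it. *Apoe* (chr7:19696244-19701310), the apolipoprotein that macrophages secrete when loaded with lipid, was above 0 in 75.4% and 27.6%. It was also listed for Plasma cell, where 80.0% of cells were above 0, and for Basophil, where 28.1% were inside and 29.8% outside. *Bst2* (chr8:71534255-71537472) was above 0 in 97.9% and 56.7%, and in 92.4% of Endothelium cell. Coordinates are those of RefSeq on GRCm38.p6. Of these 3 markers, only *Lyz2* was listed for no other type.

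The wider list of macrophage markers was listed in part. Of 24 genes, 11 were in the table and 7 were listed for the type, against 4 each for Basophil and Endothelium cell. The 7 were 63.6% of those in the table, beside 17.3% of all genes in it. The mannose receptor *Mrc1* (chr2:14229414-14332023) reached 97.0% inside and 13.2% outside, the pore-forming *Mpeg1* 98.5% and 28.2%, the lysosomal *Cd68* 94.6% and 43.0%, and the endotoxin co-receptor *Cd14* 60.8% and 32.0%. *Mpeg1*, *Lyz2* and *Cd68* were listed for no other type. *Cx3cr1*, *Itgam* (which encodes CD11b) and *Selenop* were among those listed for other types only. The defining genes *Csf1r*, *Adgre1* (F4/80), *Mertk*, *Fcgr1* and the complement genes *C1qa*, *C1qb* and *C1qc* were listed for no type.

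The table held few markers of the resident macrophages of either organ. None of 10 Kupffer cell markers was listed for the type, and *Nr1h3*, which was in the table, was listed for Endothelium cell. None of 12 alveolar macrophage markers was listed, 2 of which (*Itgax* and *Siglecf*) were in the table for other types. None of 12 neutrophil markers was listed either, although 3 were in the table. With 17.3% of all genes in the table listed for the type, 0 of 1, 0 of 2 and 0 of 3 are counts too small to set these types apart from it.

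The plasmacytoid dendritic cell list was listed in full as far as the table held it. Of its 27 genes 19 were in the table, all 19 were listed for the cells named Macrophage, and the next type, MMP_LMPP, listed 10. The type listed 17.3% of all genes in the table. The gene lists were chosen with earlier results of these data known, so the full count may partly restate that choice. The 19 genes had a median share inside of 93.3% and a median share outside of 41.1%, against 88.1% and 39.8% over all 291. All 19 differed by at least 10 percentage points, and 9 had a share inside at least 2 times that outside, where 287 and 150 of all 291 listed genes did so.

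Among the transcription factors of that list, *Tcf4* was above 0 in 96.9% of the cells inside and 49.2% outside, *Irf8* in 98.0% and 50.9%, *Runx2* in 96.4% and 50.1%, and *Irf7*, the driver of interferon α production, in 92.3% and 54.4%. *Spib* (chr7:44525995-44532087), an ETS factor, was above 0 in 88.3% and 24.7% and was listed for no other type. *Bcl11a*, which acts upstream of TCF4, was above 0 in 79.1% and 33.2%, and in 91.9% of MMP_LMPP. *Tcf4*, *Irf8*, *Runx2* and *Irf7* were each listed for between 3 and 6 other types, so *Spib* was the only factor of the list that the type did not share.

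The receptors and enzymes of the list were also higher inside, by differing amounts. *Rnase6* (chr14:51123908-51132187), a secreted ribonuclease, was above 0 in 97.1% inside and 28.1% outside, the cytochrome oxidase subunit *Cox6a2* (chr7:128205435-128206366) in 88.5% and 24.3%, the pyrimidine-degrading *Upb1* in 87.0% and 30.7%, and the collagen receptor *Lair1* in 95.3% and 52.7%. *Cox6a2*, *Upb1* and *Lair1* were listed for no other type. The homing receptor *Ccr9* reached 93.3% and 52.3%, *Ly6d* 63.3% and 22.2%, *Atp1b1* 93.6% and 68.6%, and *Pacsin1* 61.4% and 41.1%. *Ly6d* was above 0 in more of Prolifelation cell (78.1%) and *Pacsin1* in more of Plasma cell (67.6%). *Siglech*, the surface lectin most often used to name these cells in the mouse, was listed for no type, as were 7 further genes of the list.

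**Figure D2:**
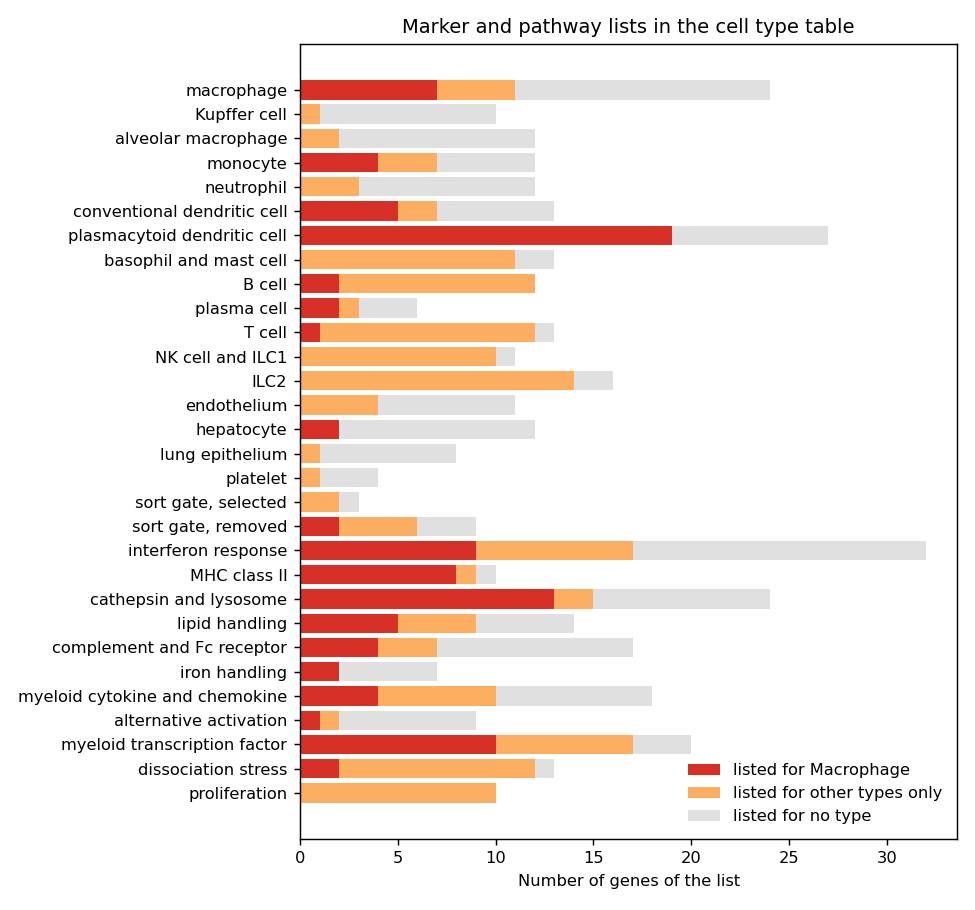
Number of genes of each marker or pathway list (horizontal axis) that were listed for Macrophage (red), listed for other types only (orange) or listed for no type (grey), for the 30 lists with at least 1 gene in the table. The plasmacytoid dendritic cell list has no orange segment, with 19 genes listed for the type, while the macrophage list has 7 red, 4 orange and 13 grey genes.

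Shares also set a limit on how many cells were above 0 for a gene of each list, since shares of a and b leave at least a + b − 100% of the cells above 0 for both. Over the 108 pairs of 6 listed macrophage genes with 18 listed plasmacytoid dendritic cell genes, *Bst2* left out, this smallest share had a median of 76.9% and ran from 15.3%, for *Cd14* with *Mzb1*, to 96.5%, for *Mpeg1* with *Irf8*. It was 85.5% for *Mrc1* with *Cox6a2* and 86.8% for *Lyz2* with *Spib*. These limits follow from the shares alone and are high where both shares are high. The cause of joint values was not tested, no doublet caller was described for these cells, and a value above 0 has the meaning discussed above. In the table, all 19 plasmacytoid dendritic cell markers and 7 of 11 macrophage markers were listed for the type, and in both lists some defining markers (*Siglech*, and *Csf1r* and *Adgre1*) were listed for no type. Both lists were chosen with earlier results known, so these counts do not decide between the names. The cells are called by the study's name here without taking it as settled.

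Markers of monocytes and conventional dendritic cells were listed in part. The type listed 57.1% of the monocyte genes in the table and 71.4% of the conventional dendritic cell genes, beside 17.3% of all genes in it. Of 12 monocyte genes 4 were listed of 7 in the table, with the interferon-induced *Ifitm3* at 66.6% inside and 22.5% outside, *Plac8* at 74.5% and 36.8%, *Ly6c2* at 96.5% and 68.9%, and *Ms4a6c* at 65.9% and 47.3%. All 4 were listed for other types too, and MMP_LMPP also listed 4 genes of the list. Of 13 conventional dendritic cell genes 5 were listed of 7 in the table, more than the 2 of NK and of Plasma cell. *Wdfy4*, needed for cross-presentation, reached 90% and 27.7%, the inhibitory receptor *Sirpa* 74.1% and 12.8%, *Naaa* 85.3% and 34.5%, and the factor *Batf3* 44.1% and 8.0%. *Sirpa*, *Naaa* and *Batf3* were listed for the type alone, and *Zbtb46*, *Flt3*, *Xcr1* and *Clec9a*, which define conventional dendritic cells, were listed for no type.

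Markers of the other lineages that the sort could hold were counted against the 17.3% of all genes in the table that the type listed. None of the 11 basophil and mast cell genes in the table, 10 NK cell and ILC1 genes, 14 ILC2 genes, 4 endothelium genes, 1 lung epithelium gene, 1 platelet gene or 10 proliferation genes was listed for the type, and the table held none of 5 red blood cell genes. For the lists with 4 genes or 1 gene in the table, a count of 0 says little beside this share. Of 12 B cell genes 2 (16.7%, near that share) were listed, *Ighm* at 96.6% and 63.7% and *Cd79b* at 55.0% and 27.9%, where Plasma cell listed all 12. The table held 3 plasma cell genes and the type listed 2 of them, above that share, *Mzb1* at 54.5% and 17.5% and *Xbp1* at 75.6% and 52.5%. Of 12 T cell genes only *Cd4* was listed, at 78.4% and 53.3%. *Mzb1* and *Cd4* are also known from plasmacytoid dendritic cells. Both hepatocyte genes in the table were listed, also above that share, the haemoglobin-binding *Hp* at 95.2% and 14.2% and the iron carrier *Trf* at 64.5% and 31.4%, but *Alb*, *Apoa1* and 8 further hepatocyte genes were listed for no type and Basophil listed the same pair.

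The genes of the sort gate itself were also examined. Of the selecting markers, *Thy1* and *Il1rl1* (ST2) were listed for other types only and *Il7r* (CD127) for no type. Of the markers used to remove cells, *Ly6c1* was listed at 91.4% inside and 63.3% outside and *Ly6c2* as above. The 2 were 33.3% of the removing markers in the table, beside 17.3% of all genes in it. *Ly6c2* is also on the monocyte and plasmacytoid dendritic cell lists. *Itgam*, *Cd3e*, *Trbc1* and *Trbc2* were listed for other types only. *Ly6g*, *Ly76* (TER119) and *Ptprc* (CD45, of which CD45R is a form) were listed for no type.

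The 15 leading genes by the difference of shares included receptors, signalling proteins, enzymes and a transcription factor. They included *Mrc1*, *Clec4a3*, *Ifi207*, *Lrp1*, *Hp*, *Cd300c2*, *Tgfbi*, *Serpinh1*, *Lpl*, *Cebpa*, *Cybb*, *Rab7b*, *Il18* and *Ly86*. Their shares inside ran from 89.9% to 97.8% and their shares outside from 13.2% to 23.2%. The C-type lectin *Clec4a3* (chr6:122952515-122969878) reached 97.3% and 14.6%, the lipoprotein receptor *Lrp1* 96.7% and 15%, and *Cebpa*, the factor that sets the granulocyte and monocyte lineage, 97.3% and 19.2%. *Cybb*, the catalytic subunit of the phagocyte oxidase, reached 97.5% and 21.7%, and *Lpl*, which splits lipoprotein triglycerides, 97.8% and 19.2%.

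**Figure D3:**
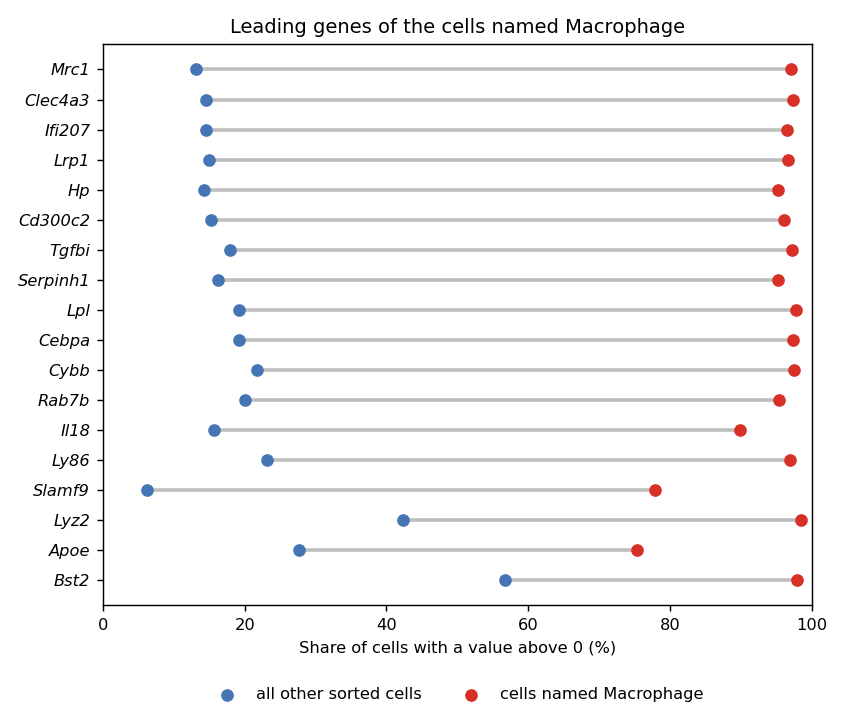
Share of cells with a value above 0 (horizontal axis, %) in cells named Macrophage (red) and in all other sorted cells (blue) for 14 of the 15 genes with the largest difference, for *Slamf9*, which has the largest ratio, and for the markers *Lyz2*, *Apoe* and *Bst2*. The 14 leading genes lie between 89.9% and 97.8% inside and under 24% outside, while *Bst2* lies at 56.7% outside.

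By the ratio of both shares *Slamf9* (chr1:172458569-172478421), a SLAM family receptor of dendritic cells and macrophages, came first. It was above 0 in 77.9% of the cells inside and 6.30% outside, a ratio of 12.4, and 37.3% of all cells above 0 for it were in the type. The next were *Mrc1* at 7.35, *Hp* at 6.70, *Clec4a3* and *Ifi207* at 6.66, *Lrp1* at 6.45, *Cd300c2* at 6.32, the paired immunoglobulin-like receptor *Pira2* at 6.10 (81.1% and 13.3%), the collagen chaperone *Serpinh1* at 5.84 and *Sirpa* at 5.79. Over all 291 genes, a median of 8.99% of the cells above 0 were in the type (2.80% to 37.3%), where the type held 4.59% of all cells. For each of the 291 genes, most cells counted as above 0 in this table were therefore cells with another name.

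At the other end were the 5 genes with the smallest difference of shares. *G0s2*, an inhibitor of lipid breakdown, was above 0 in 24.3% inside and 40.6% outside and was listed all the same. The ferritin light chain *Ftl1* had 99.9% and 98.0%, *Tagln2* 98.8% and 94.2%, the chaperone *Hsp90b1* 98.6% and 89.1%, and *Id3*, an inhibitor of E proteins, 58.2% and 47.0%. Where nearly all cells were above 0, the shares hold no information on level.

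The type alone listed 49 of its genes (16.8%), the fourth highest share of the 21 types, after Prolifelation cell (45.8%), Endothelium cell (36.8%) and Basophil (21.8%). Over all listings in the table the share was 14.3%, and counted over genes in place of listings 37.8% were listed for 1 type only. The 10 of these with the largest difference included *Clec4a3*, *Ifi207*, *Lrp1*, *Cd300c2*, *Rab7b*, *Ppfia4* (94.1% and 21.3%), *Slamf9*, *Tifa* (96.6% and 26%) and *Mpeg1*. Among the others were *Cox6a2*, *Spib*, *Upb1*, *Lair1*, *Lyz2* and *Cd68* of the marker lists. A further 76 genes were listed for exactly 1 other type, most often Endothelium cell (22 genes), Plasma cell (16), MMP_LMPP (13) and Basophil (12). At the other extreme, 76 genes were listed for at least 5 types, and *Ly6e* for 10.

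Genes of antigen presentation were nearly all listed, 88.9% of the MHC class II genes in the table, beside 17.3% of all genes in it. Of 10 MHC class II genes 9 were in the table and 8 were listed for the type, all with a share inside at least 2 times that outside. The invariant chain *Cd74* reached 90.2% and 25%, *H2-Aa* 88.2% and 24.2%, *H2-Eb1* 85.1% and 21.8%, and *H2-Ab1* 88.3% and 31.1%. The peptide-loading genes *H2-DMb2*, *H2-DMb1* and *H2-DMa* reached 86.5%, 78.9% and 90.5% inside, and *Ciita*, the master activator of the pathway, 57.3% against 14.7% outside. Plasma cell listed all 9 genes and had 100% of its cells above 0 for *Cd74* and for *H2-Aa*, and MMP_LMPP had 90.2% and 87.8%, so the class II genes did not set the type apart. The co-stimulatory *Cd86* was listed for other types only.

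Of 24 genes of cathepsins and the lysosome 15 were in the table and 13 were listed for the type, against 7 for Endothelium cell. The 13 were 86.7% of those in the table, beside 17.3% of all genes in it. Their median shares were 93.7% inside and 44.9% outside. The lysosomal growth factor precursor *Grn* reached 93.7% and 36.2%, cathepsin L (*Ctsl*) 97.9% and 40.8%, cathepsin H (*Ctsh*) 81.4% and 26.6%, cathepsin S (*Ctss*), which trims the invariant chain, 96.8% and 55.1%, and the cathepsin inhibitor *Cst3* 99.5% and 84.2%. *Cd68* was the only gene of the list that no other type listed. *Ctsd* and *Cd63* were listed for other types only.

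Some receptors and secreted proteins of myeloid cells were listed, but Basophil listed more genes of both groups. The type listed 57.1% of the receptor group and 40.0% of the secreted group in the table, beside 17.3% of all genes in it. Of 17 complement and Fc receptor genes 7 were in the table and 4 were listed, against 6 for Basophil. The activating receptor *Fcgr3* had 98.3% inside and 36.4% outside, the inhibitory *Fcgr2b* 96.2% and 40.9%, *Tyrobp* 99.5% and *Fcer1g* 99.3%. *Fcgr3* was above 0 in 91.9% of Basophil. Of 18 cytokine and chemokine genes 10 were in the table and 4 were listed, against 7 for Basophil: the inflammasome products *Il18* at 89.9% and 15.7% and *Il1b* at 96.5% and 25.9%, and the chemokines *Ccl6* at 97.8% and 30.3% and *Cxcl2* at 93.5% and 50.2%. *Il1b* was above 0 in 86.6% of Basophil. *Tnf*, *Il6*, *Ccl3*, *Ccl4*, *Ccl9* and *Cxcl10* were listed for other types only.

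Of 14 lipid handling genes 9 were in the table and 5 were listed for the type, among them *Lpl*, *Apoe*, the fatty acid carrier *Fabp5* (85.6% and 41.7%) and the lipid droplet protein *Plin2* (79.7% and 46.4%). The 5 were 55.6% of the lipid handling genes in the table, beside 17.3% of all genes in it. The cholesterol exporters *Abca1* and *Abcg1* and the scavenger receptor *Cd36* were listed for other types only. Of 7 iron handling genes both in the table were listed, the transferrin receptor *Tfrc* at 78.6% and 49.6% and *Ftl1*. Of 9 genes of alternative activation, the state that type 2 cytokines induce in macrophages, only *Mrc1* was listed for the type. The iron handling and alternative activation lists each had 2 genes in the table, too few to set beside that share.

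Of 20 myeloid transcription factor genes 17 were in the table and 10 were listed, against 7 for NK. The 10 were 58.8% of those in the table, beside 17.3% of all genes in it. Beside *Cebpa* and the factors named above, PU.1 itself (*Spi1*) was above 0 in 97.8% inside and 26.2% outside, and *Zeb2* in 81.9% and 47.2%. *Spi1* was above 0 in 88.1% of Basophil, 85.4% of MMP_LMPP and 48.8% of Plasma cell, and *Cebpa* in 77.0% of Basophil, its only other listing. *Cebpb*, *Klf4* and *Maf* were among those listed for other types only.

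Of 32 interferon response genes 17 were in the table and 9 were listed for the type, against 7 each for Endothelium cell and gdT_TypeI. The 9 were 52.9% of those in the table, beside 17.3% of all genes in it. They included *Ifitm2* (85.3% and 35.2%), *Ifitm3*, *Bst2*, *Irf7*, *Ly6e* (95.9% and 60.7%), *Ifi27l2a* (89.0% and 56.0%), *Trim30a* (81.7% and 50.2%) and *Ly6a* (43.5% and 29.4%). Every one of the 9 was listed for at least 1 other type, and the ratio of shares reached 2 only for *Ifitm2* and *Ifitm3*. *Isg15*, *Ifit1*, *Gbp2* and *Irf1* were listed for other types only. The table held 12 dissociation stress genes and the type listed 2, *Zfp36* at 93.9% and 71.5% and *Hspa1a* at 39.8% and 23.9%, against 9 for Basophil. The 2 were 16.7% of the 12, near the 17.3% of all genes in the table that the type listed.

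**Figure D4:**
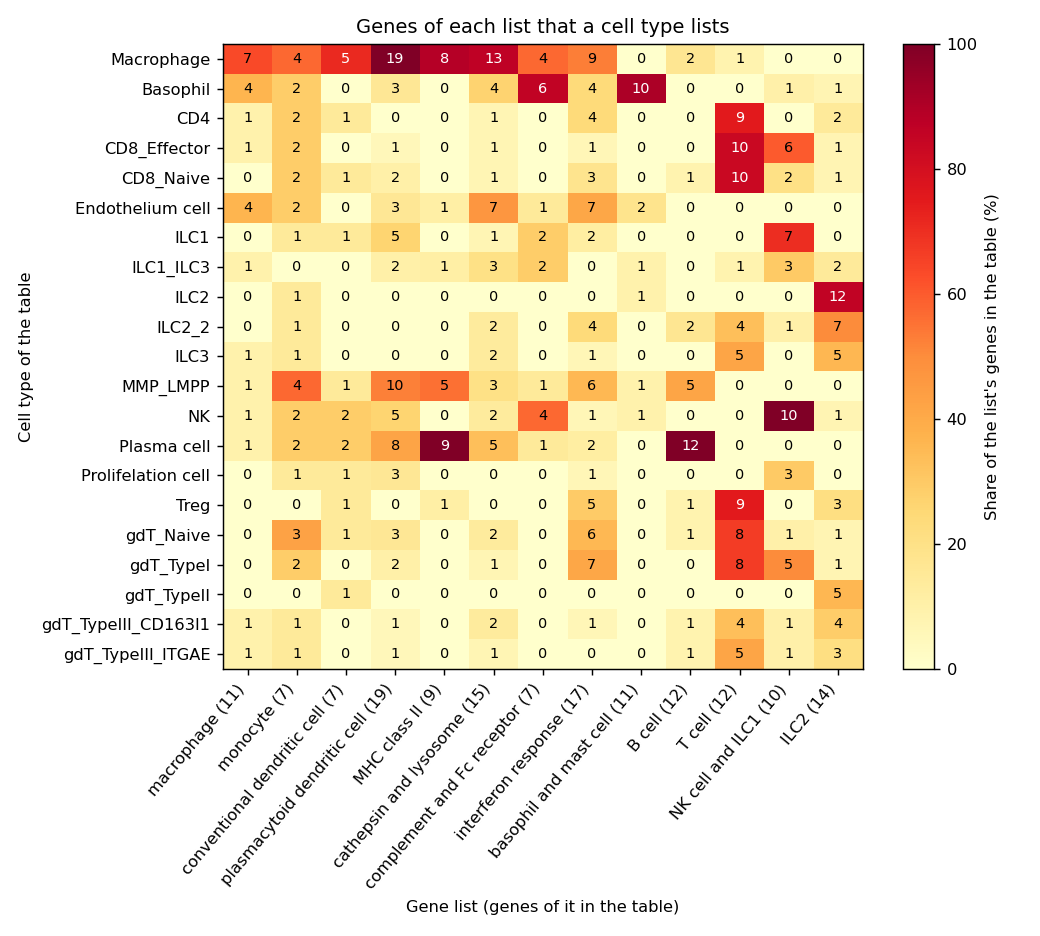
Number of genes of 13 lists (columns, with the genes of the list in the table in brackets) listed for each of the 21 cell types (rows), coloured by the share of the list's genes in the table (%). The Macrophage row holds the highest count of the macrophage, conventional dendritic cell, plasmacytoid dendritic cell, lysosome and interferon lists, ties with MMP_LMPP for monocytes, and is at 0 for the basophil, NK cell and ILC2 lists.

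Families of genes outside these lists were grouped after the listed genes had been seen, so their counts are no evidence that a family stands apart from the 17.3% of all genes that the type listed. All 3 phagocyte oxidase genes in the table were listed, among them *Cybb* and *Ncf1* (91.3% and 44.4%), where Basophil, MMP_LMPP and Plasma cell each listed 2. All 3 genes in the table of the receptors for GM-CSF and IL-3 were listed, the shared chain *Csf2rb* at 85.3% and 28.2%, the IL-3 receptor chain *Csf2rb2* at 61.7% and 23.9% and the GM-CSF receptor chain *Csf2ra* at 87.2% and 52.9%. Basophil listed *Csf2rb* at 97.3% and *Csf2rb2* at 89.6%, and MMP_LMPP listed *Csf2ra* at 79.7%. Of 11 genes of endosomal nucleic acid sensing 4 were in the table and all 4 were listed: the endosomal exonuclease *Pld4* at 97.7% and 27.9%, the Toll-like receptor chaperone *Unc93b1* at 94.0% and 40.7%, the RNA sensor *Tlr7* at 73.4% and 28.6%, and the transporter *Slc15a3* at 55.2% and 23.1%. *Tlr7* and *Slc15a3* were listed for no other type, and Plasma cell listed the other two.

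Signalling proteins and receptors of immune cells were grouped in the same way. The table held 9 genes of the Src family and Syk pathway and the type listed 6, among them *Blnk* (85.5% and 20.2%), *Fgr* (90.5% and 33.5%), *Syk* (94.4% and 39.7%), *Lyn* (82.8% and 35.6%) and the phosphatase *Ptpn6* (97.9% and 61.7%), while *Lck*, *Blk* and *Yes1* were not. Plasma cell listed 4 of the 9. The table held 7 CD300 and paired immunoglobulin-like receptor genes and the type listed 5, *Cd300c2*, *Pira2*, *Pirb* (96.2% and 30.1%), *Cd300a* (51.7% and 12.9%) and *Cd300lf* (67.8% and 38.4%), where Basophil listed 4. *Pira2* and *Pirb* lie among near-identical copies, as do *Bcl2a1a*, *Bcl2a1b* and *Bcl2a1d*, all 3 of which were listed (98.1%, 98.6% and 96.8% inside; gdT_TypeIII_CD163l1 also listed all 3), so reads may be split among their copies and their shares are uncertain.

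By number of shared genes, the list overlapped most with those of MMP_LMPP, Plasma cell, Basophil and Endothelium cell, which differ in length. MMP_LMPP shared 101 genes, 34.7% of the Macrophage list and 25.1% of its own. Plasma cell shared 78 (26.8% and 38.2%), Basophil 75 (25.8% and 27.3%) and Endothelium cell 73 (25.1% and 18.4%). As a share of the other list, gdT_TypeIII_CD163l1 (23.6%) and ILC1_ILC3 (22.7%) were above Endothelium cell, whose 18.4% was near the 17.3% of all genes in the table that the type listed. ILC2 shared 8 (2.75% and 5.88%), and gdT_TypeII shared 0 of its 28 genes. Each list was made against all other cells, so the overlaps are not independent of each other.

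The 22 genes that only Endothelium cell also listed included *Mrc1* (58.6% of Endothelium cell above 0), *Tgfbi* (82.5%), *Serpinh1* (86.9%) and *Lpl* (84.1%). The 16 that only Plasma cell also listed included *Ciita*, *H2-DMa*, *Blnk*, the light chain gene *Iglc3* (92.4% of Plasma cell and 85.8% of Macrophage above 0) and the lectin *Siglecg* (73.5% and 74.0%). With MMP_LMPP the shared genes included *Rnase6* (61.0% of MMP_LMPP), *Mzb1* (78.0%) and the interleukin subunit *Il12a* (75.6%, against 94.9% of Macrophage). With Basophil they included *Hp* (64.2% of Basophil), *Cebpa*, *Il1b* and *Ccl6*. These examples were chosen after their values were seen.

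**Figure D5:**
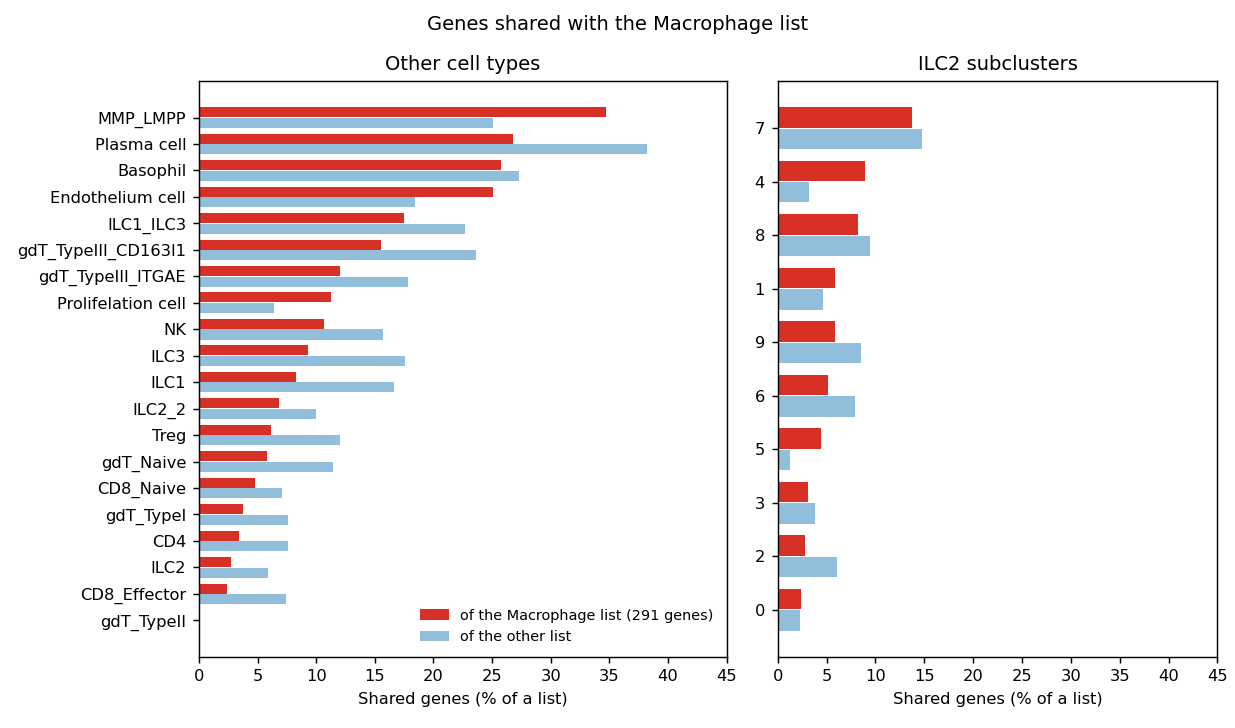
Genes that other cell types (left panel) and ILC2 subclusters (right panel) share with the Macrophage list, as a share of the 291 Macrophage genes (red) and of the other list (blue), in %. MMP_LMPP takes the largest share of the Macrophage list (34.7%), Plasma cell gives the largest share of its own list (38.2%), and subcluster 7 leads the ILC2 subclusters (13.7% and 14.8%).

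The other deposited table, which divides the ILC2s into 10 subclusters, listed 99 of the 291 genes (34.0%), against 48.8% of all genes of the cell type table. For 90 of the 99 the share among ILC2s was lower than the share outside the type, with medians of 26.2% and 51.0%, in tables whose shares are not on a known common scale. *Lyz2* and *Apoe* were not in that table.

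Subcluster 7 shared most genes with the type, 40 (13.7% of the Macrophage list and 14.8% of its own), followed by subcluster 4 with 26 (8.93% and 3.24%) and subcluster 8 with 24 (8.25% and 9.49%). The Macrophage list held 3.77% of all 2629 genes of the subcluster table, so subcluster 4 was near that share, as was subcluster 3 (3.80%), while subclusters 9 (8.54% of its list), 6 (7.89%), 2 (6.11%) and 1 (4.68%) were also above it. In subcluster 7, *Tcf4* was above 0 in 36.5% of the cells and in 8.30% of the other ILC2s, *Fcer1g* in 32.0% and 5.20%, *Tyrobp* in 26.5% and 3.20%, and *Plac8* in 61.5% and 26.6%. The developmental factor *Sox4* had 34.0% and 2.0%, and *Cxxc5* 28.5% and 1.70%. Of the 7 listed macrophage markers only *Bst2* was in the subcluster table, listed for subcluster 8. That none was among the 40 therefore says little. Subcluster 8 listed the interferon genes *Irf7* (33.7% and 12.1%), *Bst2* (61.8% and 42.4%) and *Ifitm3* (30.3% and 13.5%) and the presentation genes *Ctss* (57.3% and 27.0%) and *H2-DMa* (37.1% and 25.1%), all of them also on the Macrophage list.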

How the data were processed

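Live immune cells sorted from liver and lung were sequenced by the authors from transcript 3′ ends in droplets, 1 library for each of the 4 groups. Per the labels and methods, reads were aligned with Cell Ranger (version not given in the sources used here) to mm10, immune cells with fewer than 500 detected genes were left out, counts were scaled to 10000 per cell and log transformed, cells were clustered in Seurat, and types were named by hand. Flow cytometry was used to remove doublets and dead cells.

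The deposited fractions give, to 3 decimals, the cells with a value above 0 inside a cluster and among all other cells, pooled over the 4 libraries, and were multiplied by 100 here. The other deposited columns hold the authors' own log2 fold changes and p-values and were not used. No further columns of per-sample values were found (0). The tables hold no depth, no cell numbers per library and no value per library, so no interval or test was computed.

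Sizes of types were solved by a least-squares fit to genes that at least 2 types list, tested on simulated data. The members and the 31 gene lists (361 genes, 208 in the table) were chosen with earlier results of these data known. Genes named are the 3 markers, the 15 with the largest difference of shares, the 10 with the largest ratio among those with at least 25% inside, the 5 with the smallest difference, listed genes of the lists, the 10 leading genes listed for no other type, and genes shared with the closest ILC2 subcluster. Some genes that this rule names are not reported here. Further groups, the motifs and the joint shares of gene pairs were chosen after the values were seen. Alternatives changed which listings counted, the genes in the size fit and the measure of rank. Motifs were searched on both strands in the first window listed for each gene in a RefSeq-derived table, which need not be at its outermost start. Python 3.11.15, pandas 2.3.3, NumPy 2.4.6 and Matplotlib 3.10.9 were used.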

Additional observations from a re-analysis of the deposited data

How the results depend on the processing

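The size of the type was 4.59% under each of the 3 other choices of genes in the fit. Of the 291 listed genes, 290 remained where the share had to be higher inside, 287 where it had to be at least 10 percentage points higher and 150 where it had to be at least 2 times as high. The 49 genes listed for the type alone became 52 and 68 where listings of every type were held to the first and second of these rules. Of the 15 leading genes, 10 also led by ratio.

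With a difference of at least 10 percentage points, the counts of the lists stayed within 1.5 times, except iron handling, which went from 2 to 1. With a ratio of at least 2, the listed genes became 9 for plasmacytoid dendritic cell, 2 for monocyte, 0 for B cell, 1 for plasma cell, 0 for T cell, 0 for the markers used to remove cells, 2 for interferon response, 6 for cathepsin and lysosome, 3 for lipid handling, 2 for complement and Fc receptor, 0 for iron handling, 4 for myeloid transcription factor and 0 for dissociation stress. With a difference of at least 10 percentage points in both types, the shared genes became 26 for gdT_TypeIII_CD163l1, 17 for NK, 10 for ILC3, 11 for ILC1, 7 for ILC2_2, 3 for Treg, 1 for gdT_Naive, 1 for CD8_Naive, 2 for gdT_TypeI, 2 for CD4 and 1 for CD8_Effector, and 0, 5 and 2 for ILC2 subclusters 5, 3 and 0. The overlaps with MMP_LMPP, Plasma cell, Basophil, Endothelium cell and subclusters 7, 4 and 8 stayed within 1.5 times. Among the groups chosen after the data were seen, a ratio of at least 2 left 1 cholesterol synthesis gene, 0 endoplasmic reticulum genes and 1 *Bcl2a1* gene.

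No paired analysis was possible because only pooled shares are given and groups have 1 library. The shares are pooled over treatments and organs, carry no replicate error or depth, and say nothing of level above 0.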

Other observations

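Enzymes of cholesterol synthesis formed a further group among the genes listed for the cells named Macrophage. Of 20 such enzymes 8 were in the cell type table, and all 8 were listed for the type, against 4 for MMP_LMPP. *Hmgcs1*, an early enzyme of the pathway, was above 0 in 84.5% of the cells inside and 50.3% outside, *Sqle* in 75.7% and 33.8%, *Idi1* in 82.1% and 47.3%, and *Msmo1* in 73.7% and 43.6%. *Hmgcs1* and *Msmo1* were listed for no other type. ILC2 subcluster 7 listed 7 of the 8 enzymes, with *Idi1* at 43.0% against 11.8% of the other ILC2s and *Fdps* at 52.5% and 23.1%. The group was chosen after its values were seen, and its cause was not tested.

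Chaperones of the endoplasmic reticulum were listed with small differences. The table held 7, and 5 were listed, *Creld2* at 68.3% and 44.7%, *Pdia6* at 95.2% and 72.4%, *Sdf2l1* at 65.5% and 46.6%, *Manf* at 95.8% and 77.9%, and *Hsp90b1*. The type named Prolifelation cell listed all 7, and *Hspa5* and *Calr* were listed for other types only.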
